A study of Mus musculus with 100 samples.

Results

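Genes for chains of the basement membrane were followed in whole mouse knee joints after rupture of the anterior cruciate ligament. They were 10 of the 17310 genes in the count table, chosen by name as the main collagen, laminin and linker chains: Col4a1, Col4a2, Col15a1, Col18a1, Lama2, Lama4, Lamb1, Lamc1, Nid1 and Hspg2. They were taken for their role and not by a threshold on values, but with earlier results of these data known, and all 10 passed the filter on low counts. RNA-seq had been run on 100 joints of MRL/MpJ, C57BL/6 (C57BL/6J in the study's methods) and STR/ort mice, strains that the study ranks by their susceptibility to osteoarthritis. The right knee of 10-week-old mice was loaded once at 10 to 12 N to tear the ligament, and the injured knee and the uninjured contralateral knee were taken 1-day, 1-week or 2-weeks later. Joints taken at 0-day came from mice that had not been injured. No group carried a transgene or a drug treatment other than the analgesia and anesthesia given with the injury. Each group held 4 or 5 libraries: 4 per strain at 0-day, 4 in the 1-week contralateral groups of MRL/MpJ and STR/ort, and 5 in every other group. The 0-day, 1-day and 1-week joints formed 1 batch of 70 libraries and the 2-weeks joints another of 30, so time and batch cannot be told apart between them. A contralateral knee belonged to a mouse that was injured on the other side, and the pieces kept small traces of soft tissue around the joint.

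A basement membrane is a thin sheet of matrix under epithelium and endothelium and around muscle fibers, fat cells and Schwann cells. Laminins, each a trimer of an alpha, a beta and a gamma chain, polymerize at the cell surface, and a collagen IV network is laid against them. Nidogen and the heparan sulfate proteoglycan perlecan bridge the 2 networks, and collagens XV and XVIII sit at the border with the surrounding tissue. In a joint such sheets surround the vessels of synovium, bone and muscle, while the matrix around chondrocytes also holds collagen IV, laminin, nidogen and perlecan.

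Col4a1 and Col4a2, which encode the chains of the commonest collagen IV trimer, are shown first because they start head to head. In the RefSeq promoter windows (GRCm38.p6) the start site of Col4a1 lies at position 11312826 of chromosome 8 on the minus strand. That of Col4a2 lies at 11312805 on the plus strand, 21 bases away. The RefSeq gene model of Col4a1 reaches further, to position 11312889. The windows from 250 bases before to 50 bases after each start, chr8:11312777-11313076 (minus) and chr8:11312555-11312854 (plus), share 78 bases. Capitals mark the shared bases, each sequence written 5′ to 3′ on its gene's own strand.
Col4a1: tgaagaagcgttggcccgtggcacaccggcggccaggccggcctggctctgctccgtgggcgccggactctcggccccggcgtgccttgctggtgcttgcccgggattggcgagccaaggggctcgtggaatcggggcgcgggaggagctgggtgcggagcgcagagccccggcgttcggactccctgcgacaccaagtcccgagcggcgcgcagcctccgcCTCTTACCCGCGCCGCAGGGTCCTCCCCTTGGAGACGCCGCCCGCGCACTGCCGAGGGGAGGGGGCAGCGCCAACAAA
Col4a2: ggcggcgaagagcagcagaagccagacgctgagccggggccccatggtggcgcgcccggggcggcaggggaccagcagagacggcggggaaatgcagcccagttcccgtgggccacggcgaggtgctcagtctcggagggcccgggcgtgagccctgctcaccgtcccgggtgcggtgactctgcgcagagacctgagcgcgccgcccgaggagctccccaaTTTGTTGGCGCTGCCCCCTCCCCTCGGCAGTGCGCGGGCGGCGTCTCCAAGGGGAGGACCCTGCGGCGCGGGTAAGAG
The annotated gene bodies overlap on opposite strands from position 11312805 to 11312889, which covers part of the shared bases, and the sources used here do not say whether counting used strand, so reads from the overlap could fall to either gene. Of the 10 genes, 8 had a promoter in the RefSeq table, with 9 windows in all, and Lama4 and Lamc1 had none. The letters GGGCGG, searched on both strands, were in 7 of the 9 windows and in 35.7% of 32851 promoters of the same length. CCAAT was in 5 of the 9 and in 37.4% of all, and TATAAA in 0 of the 9 and in 13.6% of all. The collagen IV windows held 74.0% and 73.7% G and C, against a median of 52.7% over all promoters.

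All 10 genes were well measured, with between 151 and 7133 reads per library. Compared per kilobase of exon, on the scale of CPM (counts relative to library sizes that were adjusted by the trimmed mean of M values), the collagen IV chains were the highest, with medians over the 100 libraries of 33.4 CPM per kb for Col4a1 and 33.3 for Col4a2. Nid1 (17.9), Lamc1 (16.6), Hspg2 (14.1) and Col15a1 (12.9) followed. Lower medians were those of Col18a1 (8.37), Lamb1 (6.48), Lama4 (4.48) and Lama2 (2.43). The order of the laminin chains, gamma above beta above both alpha chains, held in the mean of each 0-day group. Across the 21 groups the mean level of Col18a1 varied 11.1-fold and that of Lamb1 10.9-fold, whereas Lama2 varied 2.08-fold. For each of these genes the highest and the lowest group lay in different batches.

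**Figure D1:**
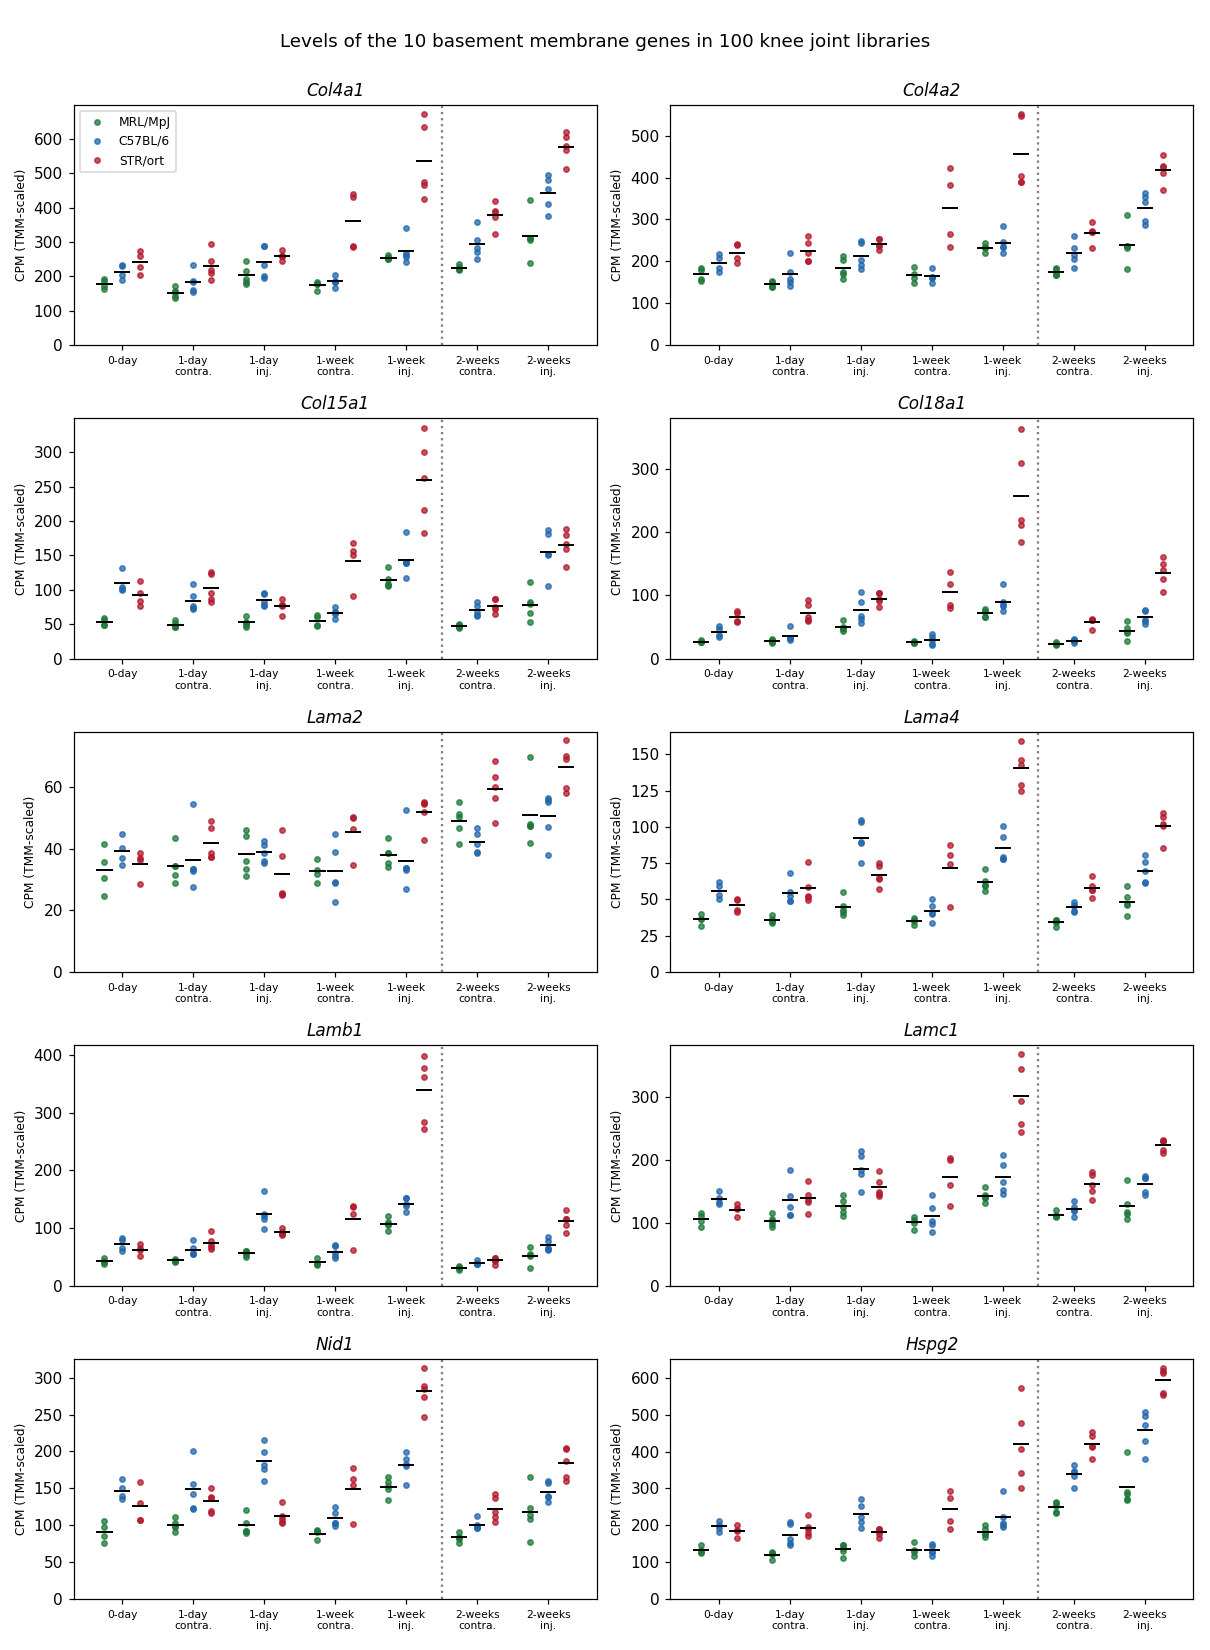
Level of each gene in CPM (vertical axis, linear, from 0) in every library, by time point and joint (horizontal axis) and strain (color). Black bars are group means and the dotted line separates the batches. The STR/ort injured joints at 1-week held the highest group mean of 7 of the 10 genes, among them Lamb1 (338.9 CPM) and Col18a1 (257.7 CPM), and Lama2 showed the narrowest range.

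Before injury MRL/MpJ joints had the lowest mean of all 10 genes. A call here means that edgeR's quasi-likelihood test, adjusted over all genes, gave p under 0.05 with a change over 1.5-fold. Between C57BL/6 and MRL/MpJ, 6 of the 10 were called higher in C57BL/6 and 0 lower, against 9.64% of all genes called higher. STR/ort exceeded MRL/MpJ in 3 (background 8.34%), with 0 lower. Col18a1 alone was higher in STR/ort than in C57BL/6 (background 7.82%). In bulk joints, fewer cells of a type and less RNA per cell cannot be told apart.

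Among the collagens at 0-day, Col18a1, whose chain releases endostatin, had levels of 26.0, 26.4, 26.4 and 29.15 CPM in MRL/MpJ. It had 33.6, 37.3, 47.0 and 52.0 CPM in C57BL/6 and 57.2, 58.9, 72.9 and 74.6 CPM in STR/ort. The 3 strains did not overlap. The log2 difference was 1.29 ± 0.12 (SE) between STR/ort and MRL/MpJ (adjusted p = 2.6e-07) and 0.60 ± 0.12 between STR/ort and C57BL/6 (adjusted p = 0.000642). The latter call ended at 0.42 and 0.40 with 1 and 2 factors of unwanted variation, estimated from the study's 25 housekeeping genes, as covariates (adjusted p = 0.0519 and 0.417), at 0.53 with libraries scaled to those genes, and at 0.50 to 0.55 without C57BL/6 replicates 2 or 3 or STR/ort replicates 3 or 4. Col15a1, the sister collagen, took another order: 49.1, 49.4, 55.9 and 59.4 CPM in MRL/MpJ, 75.8, 83.8, 96.0 and 113 CPM in STR/ort, and 100, 100, 104 and 132 CPM in C57BL/6. MRL/MpJ stood apart below both, and the other strains overlapped. Its log2 difference between C57BL/6 and MRL/MpJ was 1.07 ± 0.12 (adjusted p = 1.1e-06), and that between STR/ort and C57BL/6 was -0.29 ± 0.11 (adjusted p = 0.0521). Col4a1 and Col4a2 were under the 1.5-fold limit in all 3 comparisons.

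Among laminins at 0-day, Lamb1, the beta1 chain, was 0.83 ± 0.12 higher on the log2 scale in C57BL/6 than in MRL/MpJ (adjusted p = 1.99e-05) and 0.59 ± 0.12 higher in STR/ort (adjusted p = 0.000695). The call over MRL/MpJ in STR/ort lay at the fold limit: it ended at 0.52 with 2 unwanted factors, just under the limit with housekeeping scaling, and at 0.51 to 0.58 without MRL/MpJ replicates 2 or 4 or STR/ort replicates 1 or 3. Lama4, the alpha chain found in vessel walls and fat, was 0.68 ± 0.09 higher in C57BL/6 than in MRL/MpJ (adjusted p = 1.8e-05). Lama2, the alpha chain of muscle and Schwann cell basement membranes, was not called: its levels ran from 24.8 to 41.4 CPM in MRL/MpJ, from 34.8 to 44.7 in C57BL/6 and from 28.5 to 38.7 in STR/ort, and they overlapped. The linkers Nid1 (0.73 ± 0.12) and Hspg2 (0.62 ± 0.08) were called between C57BL/6 and MRL/MpJ, with adjusted p of 0.000114 and 7.32e-06. In that comparison Hspg2 and Lama4 fell under the fold limit without MRL/MpJ replicate 2 (0.56 and 0.58), Hspg2 also without C57BL/6 replicate 4 (0.58), and Col18a1 (0.69) without C57BL/6 replicate 1 (0.58).
Col15a1 in STR/ort over MRL/MpJ (0.79) fell to 0.52 with 2 unwanted factors.
Marker lists differed between the strains at the same time. All 8 fast skeletal muscle markers were lower, and 7 of 8 fibroblast markers and 7 of 7 cartilage markers higher, in C57BL/6 than in MRL/MpJ. Of the 12 endothelial markers 0 were called there. In STR/ort over MRL/MpJ 4 of 8 fibroblast, 2 of 7 cartilage and 2 of 8 Schwann cell markers were higher, with sums that did not overlap: 17250 to 21550 against 12520 to 16100 CPM, 5872 to 9462 against 3121 to 4317 CPM and 269 to 315 against 170 to 206 CPM. In STR/ort over C57BL/6 fast muscle (81160 to 91520 against 35320 to 57480 CPM), Schwann cell (269 to 315 against 153 to 230 CPM) and endothelial sums (592 to 624 against 557 to 576 CPM) were higher without overlap. Fibroblast sums were lower there, at 17250 to 21550 against 24610 to 31880 CPM. The part of these differences in the values above was not tested. With 2 unwanted factors, under which 1.69% of all genes were called in either direction, 0 of the 6 calls between C57BL/6 and MRL/MpJ passed, at adjusted p of 0.219 to 0.558. The log2 values were then 0.84 for Col18a1 and 0.60 for Lamb1, over the fold limit. Under it were those of Col15a1 (0.57), Nid1 (0.53), Lama4 (0.39) and Hspg2 (0.33). What the factors removed was not tested.

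After injury every call among the 10 genes was of a higher level in the injured joint, and in each strain there were fewer calls at 1-day than at 1-week. At 1-day, 1 gene was called higher in injured than in contralateral MRL/MpJ joints (background 1.53%), 3 in C57BL/6 (4.26%) and 0 in STR/ort (1.61%). At 1-week the counts were 5 (2.93%), 9 (4.75%) and 7 (5.67%) in the same order. At 2-weeks they were 3 (1.14%), 5 (2.88%) and 7 (4.34%). In 0 of these 9 comparisons was a gene called lower. In STR/ort at 1-day 6 of the 10 values were positive, against 45.8% of all genes, 5 of the 10 had an unadjusted p below 0.05 and DESeq2 called 0. The share of all genes at an unadjusted p below 0.05 was not computed, here or for later comparisons. Such counts are therefore not read as a result about the 10 genes. The median log2 fold change over the 10 genes went from 0.32, 0.40 and 0.12 at 1-day to 0.70, 0.77 and 0.84 at 1-week in MRL/MpJ, C57BL/6 and STR/ort, while that over all genes stayed between -0.03 and 0.01.

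**Figure D2:**
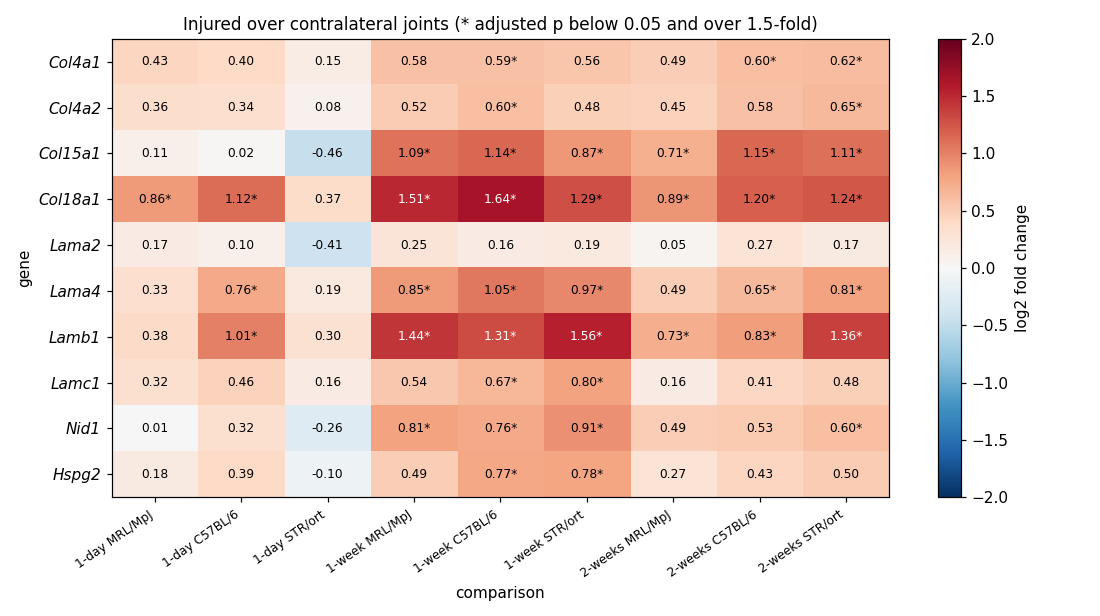
Log2 fold change of injured over contralateral joints for each gene (rows) in each strain and time point (columns); red is higher in injured joints and an asterisk marks a call. Col18a1 was called in 8 of the 9 columns, Lamb1 in 7 and Lama2 in 0.

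The changes of collagen IV were modest. At 1-day Col4a1 gave 0.43 ± 0.12 in MRL/MpJ (adjusted p = 0.0325), 0.40 ± 0.12 in C57BL/6 (adjusted p = 0.0177) and 0.15 ± 0.12 in STR/ort (adjusted p = 0.519), and Col4a2 gave 0.36, 0.34 and 0.08, all under the fold limit. In MRL/MpJ at 1-day the injured joints, at 178 to 244 CPM of Col4a1, lay above the contralateral joints, at 137 to 170.5 CPM, and in the other strains they overlapped. Col4a1 in C57BL/6 had 167, 182, 184, 187 and 205 CPM in contralateral joints and 241, 256, 261, 269 and 339 CPM in injured joints at 1-week. The groups did not overlap, and the log2 fold change was 0.59 ± 0.12 (adjusted p = 0.000833). This value lay just over the 1.5-fold limit, and the call ended at 0.58 under DESeq2 and median-of-ratios size factors, at 0.50 without injured replicate 5, and at 0.56 and 0.58 without contralateral replicates 1 and 4. MRL/MpJ (0.58 ± 0.13, adjusted p = 0.00414) and STR/ort (0.56 ± 0.13, adjusted p = 0.00178) lay just under the limit at 1-week. With knees paired by replicate number the STR/ort value, at 0.60, passed, but the labels do not give the animal at 1-week. At 2-weeks the Col4a1 value was 0.49 ± 0.11 in MRL/MpJ, 0.60 ± 0.11 in C57BL/6 and 0.62 ± 0.11 in STR/ort, of which the last 2 were called. The C57BL/6 call ended at 0.58 under DESeq2 and median-of-ratios size factors, at 0.57 and 0.55 with 1 and 2 unwanted factors, and at 0.54 to 0.58 without injured replicates 1 or 4 or contralateral replicates 1, 2 or 5. The STR/ort call ended at 0.57 without contralateral replicate 5. Col4a2 gave 0.45 to 0.65 at 2-weeks and 0.48 to 0.60 at 1-week. It was called in C57BL/6 at 1-week, where it fell under the limit without injured replicate 5 (0.53) or contralateral replicate 1 (0.56), and in STR/ort at 2-weeks. At 2-weeks in C57BL/6 it was 0.58, and 0.59 with the knees paired, which passed.

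The multiplexin collagens moved apart in time. Col18a1 was called at 1-day in MRL/MpJ and C57BL/6. It went from 24.7, 26.0, 28.4, 29.8 and 30.5 CPM in contralateral to 43.8, 46.2, 48.0, 50.6 and 60.9 CPM in injured MRL/MpJ joints. In C57BL/6 it went from 29.5, 31.8, 32.2, 32.6 and 51.2 CPM to 56.8, 63.2, 67.5, 90.0 and 105 CPM. In neither strain did the joints overlap, and the log2 fold changes were 0.86 ± 0.16 (adjusted p = 0.00068) and 1.12 ± 0.15 (adjusted p = 2.35e-06). STR/ort began higher, at 59.5, 60.4, 66.4, 84.3 and 92.5 CPM in contralateral joints, and had 81.3, 90.7, 94.8, 103 and 104 CPM in injured joints. Those groups overlapped, and the value was 0.37 ± 0.15 (adjusted p = 0.113). At 1-week the Col18a1 fold change was 2.84 in MRL/MpJ, 3.13 in C57BL/6 and 2.45 in STR/ort, each called. At 2-weeks it was 1.85, 2.29 and 2.36.

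Col15a1 was not called at 1-day. Its log2 values were 0.11 ± 0.12 in MRL/MpJ (adjusted p = 0.761), 0.02 ± 0.12 in C57BL/6 (adjusted p = 0.921) and -0.46 ± 0.12 in STR/ort (adjusted p = 0.00894, under the fold limit). At 1-week MRL/MpJ had 46.6, 48.5, 60.5 and 63.1 CPM in contralateral and 106, 108, 109, 116 and 133 CPM in injured joints. STR/ort had 91.0, 150, 156 and 168 CPM and 183, 215, 263, 301 and 335 CPM. The injured joints lay above all contralateral joints in both. The fold change was 2.13 in MRL/MpJ, 2.21 in C57BL/6 and 1.83 in STR/ort (adjusted p = 2.36e-05, 1.68e-06 and 0.000132), and at 2-weeks it was 1.63, 2.21 and 2.16. The MRL/MpJ call at 2-weeks (0.71 on the log2 scale) ended at 0.58 without injured replicate 4.

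Of the laminin chains, Lamb1 gave the largest fold changes after injury. Its levels in C57BL/6 at 1-day were 54.0, 54.8, 56.8, 65.8 and 79.2 CPM in contralateral joints and 97.5, 116, 120, 124 and 164 CPM in injured joints. These did not overlap (log2 fold change 1.01 ± 0.11, adjusted p = 6.14e-08). In STR/ort at 1-day the contralateral joints had 63.1, 66.6, 69.6, 76.9 and 94.9 CPM and the injured joints 87.1, 89.7, 92.0, 93.5 and 100 CPM. Here 1 contralateral joint lay within the injured range, and the value was 0.30 ± 0.11 (adjusted p = 0.0812). At 1-week STR/ort went from 62.0, 124, 136 and 138 CPM to 273, 284, 362, 377 and 399 CPM, with the lowest injured joint well above the highest contralateral one. The log2 fold change of 1.56 ± 0.16 (adjusted p = 3.32e-08) was accompanied by 1.44 ± 0.17 in MRL/MpJ and 1.31 ± 0.15 in C57BL/6. At 2-weeks it was 0.73 ± 0.13, 0.83 ± 0.13 and 1.36 ± 0.13 in MRL/MpJ, C57BL/6 and STR/ort.

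The alpha chains parted. Lama4 was called at 1-day in C57BL/6 (0.76 ± 0.11, adjusted p = 6.46e-06), and at 1-week in MRL/MpJ (0.85 ± 0.14), C57BL/6 (1.05 ± 0.12) and STR/ort (0.97 ± 0.13), with adjusted p of 8.42e-05, 3.47e-07 and 2.75e-06. In STR/ort at 1-week it had 45.0, 74.6, 80.5 and 87.3 CPM in contralateral and 125, 129, 143, 146 and 159 CPM in injured joints, which did not overlap. At 2-weeks Lama4 was called in STR/ort (0.81 ± 0.09, adjusted p = 4.53e-08) and C57BL/6 (0.65 ± 0.09, adjusted p = 8.02e-06), with means of 101 against 57.9 CPM and 69.9 against 44.6 CPM in injured and contralateral joints. It gave 0.49 ± 0.09 in MRL/MpJ, under the fold limit, and the joints overlapped in no strain. Lama2 was called in 0 of the 9 comparisons, with log2 values from -0.41 to 0.27 and adjusted p from 0.116 upward. In the same STR/ort joints it had 34.7, 46.4, 50.05 and 50.25 CPM in contralateral and 42.7, 52.0, 54.6, 54.9 and 55.3 CPM in injured joints, which overlapped. Lamc1, the gamma chain shared by most laminins, was called at 1-week in C57BL/6 (0.67 ± 0.13) and STR/ort (0.80 ± 0.14) and in no strain at 2-weeks, where its values were 0.16, 0.41 and 0.48.

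Both linkers were called at 1-week. Nid1, the nidogen that joins laminin to collagen IV, was called in all 3 strains, with 0.81 ± 0.11 in MRL/MpJ, 0.76 ± 0.10 in C57BL/6 and 0.91 ± 0.11 in STR/ort. At 1-day its values were 0.01, 0.32 and -0.26. Hspg2, which encodes perlecan, was called at 1-week in C57BL/6 (0.77 ± 0.14, adjusted p = 0.000155) and STR/ort (0.78 ± 0.15, adjusted p = 0.000219), while MRL/MpJ gave 0.49 ± 0.15 (adjusted p = 0.0483). At 2-weeks Nid1 reached 0.60 ± 0.12 in STR/ort, a call that ended at 0.58 under DESeq2 and median-of-ratios size factors, at 0.57 with edgeR's own filter and at 0.54 to 0.58 without injured replicates 1 or 2 or contralateral replicates 3, 4 or 5, and Hspg2 was called in no strain (0.27, 0.43 and 0.50).

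Whether the response to injury differed between strains was tested by the interaction of strain and joint. At 1-day the rise was smaller in STR/ort than in C57BL/6 for Col18a1 (difference in log2 fold change -0.75 ± 0.21, adjusted p = 0.0354) and Lamb1 (-0.71 ± 0.16, adjusted p = 0.00559), which were 2 of 10 genes called lower against 2.48% of all genes. Adjusted p alone was under 0.05 for 5 of the 10 (background 4.02%), and 0 of the 10 had a positive sign, against 49.5% of all genes. The Col18a1 call ended with only the groups compared in the fit (adjusted p = 0.0977) and in 10 of 20 refits without a library (adjusted p = 0.0526 to 0.103), among them those without C57BL/6 contralateral replicate 2 and STR/ort injured replicate 1. The Lamb1 call ended at -0.58 without C57BL/6 injured replicate 4. Single libraries moved the count of calls, for which the share of all genes in each refit is not given. It was 0 without C57BL/6 injured replicate 4 and 5 without C57BL/6 contralateral replicate 1. Counts of 1 were found without C57BL/6 injured replicate 1, C57BL/6 contralateral replicates 3, 4 or 5, STR/ort injured replicate 2 or STR/ort contralateral replicates 2 or 4, and counts of 4 without C57BL/6 injured replicate 2, STR/ort injured replicate 5 or STR/ort contralateral replicates 3 or 5. Fast muscle markers were called lower in injured STR/ort joints at 1-day (5 of 8) and 3 of 8 fibroblast markers had a smaller change in STR/ort than in C57BL/6, and their part was not tested. In the other 8 interactions 0 of the 10 were called by edgeR. The share of all genes called in either direction was there 0.162% and 0.318% at 1-day (STR/ort and C57BL/6, each against MRL/MpJ), 0.884%, 0.491% and 0% at 1-week and 0.451%, 0.0462% and 0% at 2-weeks (STR/ort against MRL/MpJ, STR/ort against C57BL/6 and C57BL/6 against MRL/MpJ). Unadjusted p was below 0.05 for between 0 and 3 genes in each, and DESeq2 called 1 in C57BL/6 against MRL/MpJ at 1-day and 0 in the others.

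Between 1-day and 1-week, both in the first batch, calls were most numerous in STR/ort. In injured joints 10 of 10 were higher at 1-week than at 1-day in STR/ort (background 8.93%), 3 in MRL/MpJ (2.51%) and 1 in C57BL/6 (1.66%), and 0 were lower. Lamb1 in injured STR/ort joints went from 87.1 to 100 CPM at 1-day to 273 to 399 CPM at 1-week, a log2 change of 1.88 ± 0.16 (adjusted p = 6.6e-09). Even Lama2 was called there (0.71 ± 0.15, adjusted p = 0.000728), from 24.97, 25.4, 25.7, 37.6 and 46.2 CPM to 42.7, 52.0, 54.6, 54.9 and 55.3 CPM, with 1 joint at 1-day above the lowest at 1-week. In C57BL/6 Col15a1 was the called gene (0.75 ± 0.12, adjusted p = 6.71e-05), and Lamb1 gave 0.19. In MRL/MpJ they were Col15a1 (1.14), Lamb1 (0.96) and Nid1 (0.63). Marker lists moved in the same injured joints. In STR/ort 7 of 8 fibroblast and 5 of 8 mural cell markers were called higher at 1-week than at 1-day, the fibroblast sum going from 20180 to 24670 CPM at 1-day to 43090 to 71580 CPM at 1-week and the mural sum from 411 to 546 CPM to 708 to 1281 CPM, both without overlap. The fibroblast sum went from 14030 to 18340 CPM to 18790 to 23380 CPM in MRL/MpJ, and from 22060 to 33400 CPM to 21080 to 33620 CPM in C57BL/6. Their part was not tested.
The change from 1-day to 1-week in the injury effect itself, injured less contralateral, was called higher for 4 genes in MRL/MpJ (background 1.29%), 1 in C57BL/6 (0.826%) and 7 in STR/ort (3.85%). Col15a1 was called in each strain, at 0.98 ± 0.13, 1.09 ± 0.17 and 1.32 ± 0.25. Lamb1 was called in MRL/MpJ (1.06 ± 0.12) and STR/ort (1.25 ± 0.23), as were Nid1 (0.80 ± 0.13 and 1.16 ± 0.18) and Col18a1 (0.65 ± 0.12 and 0.92 ± 0.25). In STR/ort Hspg2 (0.87), Lama4 (0.76) and Lamc1 (0.64) were called as well. The Col18a1 call in STR/ort ended, at adjusted p of 0.0517 to 0.0638, without 1-day contralateral replicates 2 or 4, 1-week injured replicates 1 or 2 or 1-week contralateral replicates 3 or 4. That of Lamc1 ended without any of the same 6 joints and without 1-day injured replicates 3 or 4. These contrasts use the same joints as the comparisons of injured with contralateral joints.

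Contralateral joints also moved in STR/ort. Against 0-day, calls were made for 4 genes, all higher, in STR/ort contralateral joints at 1-week (background 4.73%): Lamb1 (0.85 ± 0.18, adjusted p = 0.00104), Col18a1 (0.65 ± 0.19, adjusted p = 0.0154), Lama4 (0.62 ± 0.16, adjusted p = 0.00429) and Col15a1 (0.59 ± 0.19, adjusted p = 0.0213). Lamb1 had 50.6, 61.6, 65.5 and 72.3 CPM at 0-day and 62.0, 124, 136 and 138 CPM at 1-week, so that 3 joints lay above and 1, replicate 3, within the earlier range. The Col15a1 and Lama4 calls lay near the fold limit and ended with housekeeping scaling (0.55 and 0.57), and that of Col15a1 also with median-of-ratios size factors (0.58). Without replicate 3 there were 7 calls, and without contralateral replicate 1 or 0-day replicate 2 only 1, where the share of all genes is not given. With 1 or 2 unwanted factors the count was 9 or 10 (4.2% and 4.62% of all genes called in either direction), and with scaling to housekeeping genes it was 2 (12.2%). In C57BL/6 the direction was the other way, with Col15a1 called lower (-0.73 ± 0.12, adjusted p = 0.000238, background 4.49%), while 7 of 8 fibroblast markers, 7 of 7 cartilage markers and 8 of 8 bone markers were also called lower. In MRL/MpJ at 1-week, and in all strains at 1-day, 0 of the 10 were called by edgeR, with between 0 and 2 at an unadjusted p below 0.05 and 0 by DESeq2. The share of all genes called in either direction was 0% in the first of these, and 0.156%, 0.0462% and 8.89% at 1-day in MRL/MpJ, C57BL/6 and STR/ort. In STR/ort contralateral joints at 1-week all 8 fast muscle markers were called lower than at 0-day, and 5 of 8 fibroblast, 3 of 7 cartilage and 1 of 8 bone markers higher. The median fibroblast sum went from 18660 to 29250 CPM. The cartilage sum went from 5872 to 9462 CPM at 0-day to 10830 to 24310 CPM at 1-week and the bone sum from 2024 to 2818 CPM to 2838 to 4161 CPM, both without overlap. The part of these lists was not tested.

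At 1-week STR/ort joints exceeded those of the other strains on both sides. In injured joints 9 of 10 genes were called higher than in MRL/MpJ (background 15%) and 9 than in C57BL/6 (13.3%). In contralateral joints the counts were 9 (13.7%) and 8 (13.1%). Lama2 was left out each time, and Nid1 (0.46) in contralateral joints against C57BL/6. Col18a1 had 24.99, 25.3, 25.75 and 27.9 CPM in MRL/MpJ contralateral joints, 22.1, 22.5, 29.0, 34.2 and 38.2 CPM in C57BL/6 and 80.4, 84.2, 118 and 137 CPM in STR/ort. The STR/ort joints lay apart from both, by 4.08-fold over MRL/MpJ (adjusted p = 1.76e-09) and 3.59-fold over C57BL/6 (adjusted p = 2.01e-09). In injured joints Col18a1 was 3.52-fold and 2.82-fold higher, Lamb1 3.13-fold and 2.35-fold, and Hspg2 2.28-fold and 1.86-fold. Lama2 was not called in any of the 4, at 0.43 to 0.51 on the log2 scale. Between C57BL/6 and MRL/MpJ at 1-week 0 of 10 were called in either joint by edgeR (background in either direction 9.47% in injured and 8.53% in contralateral joints), with 6 in injured and 2 in contralateral joints at an unadjusted p below 0.05 and 0 by DESeq2.
These comparisons share the STR/ort joints and are not independent. Scaling to housekeeping genes lowered the log2 values of STR/ort over the other strains at 1-week by 0.14 to 0.17 and left 7 to 9 calls in each. The calls lost were those of Nid1 (0.45) and Lama4 (0.53) in injured joints and Lamc1 (0.51) in contralateral joints, all over C57BL/6. With 1 unwanted factor the contralateral Hspg2 calls ended (0.56 over MRL/MpJ and 0.59 over C57BL/6). Nid1 in injured joints over C57BL/6 ended without STR/ort replicate 1 (0.58), and Lamc1 in contralateral joints without STR/ort replicates 1 or 2 or C57BL/6 replicate 4 (0.57 to 0.58). In the same 4 comparisons 7 of 8 fibroblast markers and 7 of 7 cartilage markers were higher and 5 to 8 of 8 fast muscle markers lower in STR/ort, and their part was not tested.

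**Figure D3:**
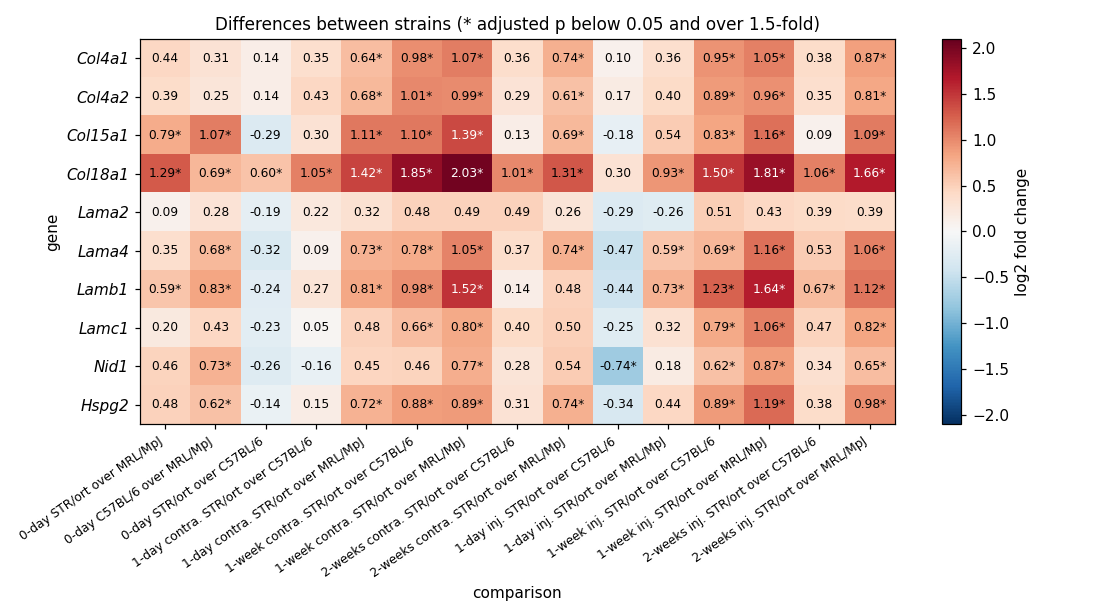
Log2 difference between strains for each gene (rows) at 0-day, in contralateral and in injured joints (columns); red is higher in the first-named strain and an asterisk marks a call. Values of STR/ort over the other strains at 1-week run from 0.43 for Lama2 to 2.03 for Col18a1, and all are positive.

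At 1-day and 2-weeks STR/ort had fewer calls over C57BL/6 than at 1-week, and C57BL/6 had calls over MRL/MpJ at 1-day in both joints and at 2-weeks in injured joints. At 1-day contralateral STR/ort joints had 7 genes called over MRL/MpJ (background 13.1%), all but Lama2, Lamc1 and Nid1. Of these Col4a1 and Col4a2 ended with housekeeping scaling (0.54 and 0.57) and Col4a1 also without STR/ort replicate 2 (0.54). They had 1 over C57BL/6 (5.73%), Col18a1 (1.05), and C57BL/6 had 3 over MRL/MpJ (9%), Col15a1 (0.80), Lama4 (0.64) and Nid1 (0.60). Without C57BL/6 replicate 1 the Lama4 (0.55) and Nid1 (0.48) calls ended and the count was 1, and Nid1 also ended without C57BL/6 replicate 2 or MRL/MpJ replicates 4 or 5 (0.56 to 0.58). In injured joints at 1-day STR/ort had 3 over MRL/MpJ (10.2%), Col18a1 (0.93), Lamb1 (0.73) and Lama4 (0.59). With housekeeping scaling Lamb1 (0.55) and Lama4 (0.41) ended and the count was 1. Lama4 also ended at 0.58 under DESeq2 and median-of-ratios size factors and at 0.54 to 0.56 without MRL/MpJ replicates 3 or 4 or STR/ort replicates 1 or 5. C57BL/6 had 6 over MRL/MpJ (10%), led by Lamb1 (1.17) and Lama4 (1.06) and completed by Nid1, Hspg2, Col15a1 and Col18a1. That of Col18a1 (0.64) ended with housekeeping scaling (0.57) and without C57BL/6 replicates 1 (0.58) or 4 (0.49). Nid1 was lower in STR/ort than in C57BL/6 (-0.74 ± 0.11, adjusted p = 5.07e-06, background 7.48%). The Nid1 levels were 103, 104, 108, 113 and 132 CPM in STR/ort and 160, 176, 182, 200 and 215 CPM in C57BL/6, without overlap. With 1 or 2 unwanted factors the count for STR/ort over MRL/MpJ in injured joints became 10 (13.4% and 13.9% of all genes in either direction) and Nid1, at -0.41 and -0.40, fell under the fold limit. At 2-weeks injured STR/ort joints had 9 genes called over MRL/MpJ (11%), all but Lama2, and 2 over C57BL/6 (5.4%), namely Col18a1 (1.06 ± 0.13) and Lamb1 (0.67 ± 0.12), and C57BL/6 had 3 over MRL/MpJ (7.31%), Col15a1 (0.99), Col18a1 (0.60) and Hspg2 (0.60). That last count was 1, with Col15a1 left, under DESeq2, median-of-ratios size factors, edgeR's own filter and a fit of the compared groups alone, as well as without MRL/MpJ injured replicates 1, 3 or 5 or C57BL/6 injured replicates 1 or 4. Contralateral joints at 2-weeks had 6 called in STR/ort over MRL/MpJ (7.97%), which were both collagen IV genes, Col15a1, Col18a1, Lama4 and Hspg2, 1 over C57BL/6 (4.92%), which was Col18a1 (1.01 ± 0.14), and 0 between C57BL/6 and MRL/MpJ (9.83% in either direction), where 7 had an unadjusted p below 0.05 and DESeq2 called 0. In contralateral STR/ort over MRL/MpJ Col15a1 (0.56) and Col4a2 (0.53) ended with 2 unwanted factors and Col4a2 also without STR/ort replicate 4 (0.57), and in injured joints Nid1 ended without MRL/MpJ replicate 3 (0.53).
Marker lists also separated these groups. Over MRL/MpJ, contralateral STR/ort joints at 1-day had 7 of 8 fibroblast and 7 of 7 cartilage markers called higher and 7 of 8 fast muscle markers lower. The sums did not overlap, at 21400 to 28290 against 11960 to 15340 CPM, 9547 to 15890 against 2328 to 4227 CPM and 32250 to 56410 against 66340 to 86450 CPM. In injured joints at 2-weeks 6 of 8 fibroblast and 7 of 7 cartilage markers were higher in STR/ort and 0 of 8 fast muscle markers were called, with fibroblast sums of 30980 to 42290 against 14880 to 20330 CPM. Against C57BL/6 there, 3 of 8 fibroblast and 1 of 7 cartilage markers were higher. In injured joints at 1-day STR/ort and MRL/MpJ were apart in fibroblast (20180 to 24670 against 14030 to 18340 CPM) and fast muscle sums (17680 to 44950 against 46920 to 84220 CPM). At 1-day fibroblast sums of C57BL/6 lay above those of MRL/MpJ in injured (22060 to 33400 CPM) and contralateral joints (16760 to 26390 CPM). In injured joints at 2-weeks they did so too (25290 to 34550 CPM). Fast muscle sums of C57BL/6 and MRL/MpJ overlapped in these joints. The part of these lists was not tested.

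Ratios of 2 genes within a library do not depend on library size. The log2 ratio of Lama4 to Lama2 was higher in injured joints in 8 of 9 comparisons after adjustment over 27 tests (two-sided exact permutation test). At 1-week it was 0.38, 0.58, 0.80 and 0.80 in contralateral STR/ort joints, whereas the injured joints had a median of 1.42 and a highest value of 1.61, a mean difference of 0.80 (exact p = 0.0159, adjusted p = 0.0357), and the groups did not overlap. In C57BL/6 at 1-week the difference was 0.90 (exact p = 0.00794, adjusted p = 0.0306), with 0.03 to 0.59 in contralateral and 0.94 to 1.55 in injured joints, and in MRL/MpJ it was 0.59 (exact p = 0.0159, adjusted p = 0.0357). The exception was MRL/MpJ at 1-day, at 0.16 (exact p = 0.357, adjusted p = 0.438). Tested with exact sign flips over knees of the same replicate number, the differences at 2-weeks (0.45, 0.39 and 0.64 in MRL/MpJ, C57BL/6 and STR/ort) and in STR/ort at 1-week (0.77) did not pass (adjusted p = 0.188 to 0.225). The labels give the animal only at 2-weeks, and 5 pairs cannot reach an exact p below 0.0625.
Col18a1 gained on Col15a1 at 1-day in every strain. The ratio went from between -0.90 and -0.69 to between -0.25 and 0.04 in MRL/MpJ, from between -1.51 and -1.07 to between -0.43 and 0.13 in C57BL/6, and from between -0.55 and -0.45 to between -0.09 and 0.56 in STR/ort. The joints did not overlap in any strain, and each difference (0.75, 1.07 and 0.83) had an exact p = 0.00794 and an adjusted p = 0.0306. At 1-week the differences were 0.40 in MRL/MpJ, 0.54 in C57BL/6 and 0.41 in STR/ort, with adjusted p of 0.0357, 0.0306 and 0.151, and at 2-weeks they were 0.18, 0.06 and 0.13, with adjusted p of 0.122 to 0.627.
For the ratio of Col4a1 to Col4a2, 0 of 9 comparisons passed, the smallest exact p being 0.0873, and the differences ran from -0.03 to 0.08. The group means of this ratio were 0.03 to 0.22 in the first batch and 0.37 to 0.495 in the second, and batch and time cannot be told apart. At 0-day 0 of 9 ratio tests passed after adjustment, where 4 against 4 joints cannot go below an exact p of 0.0286. Col18a1 to Col15a1 reached that value in STR/ort over both other strains.

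**Figure D4:**
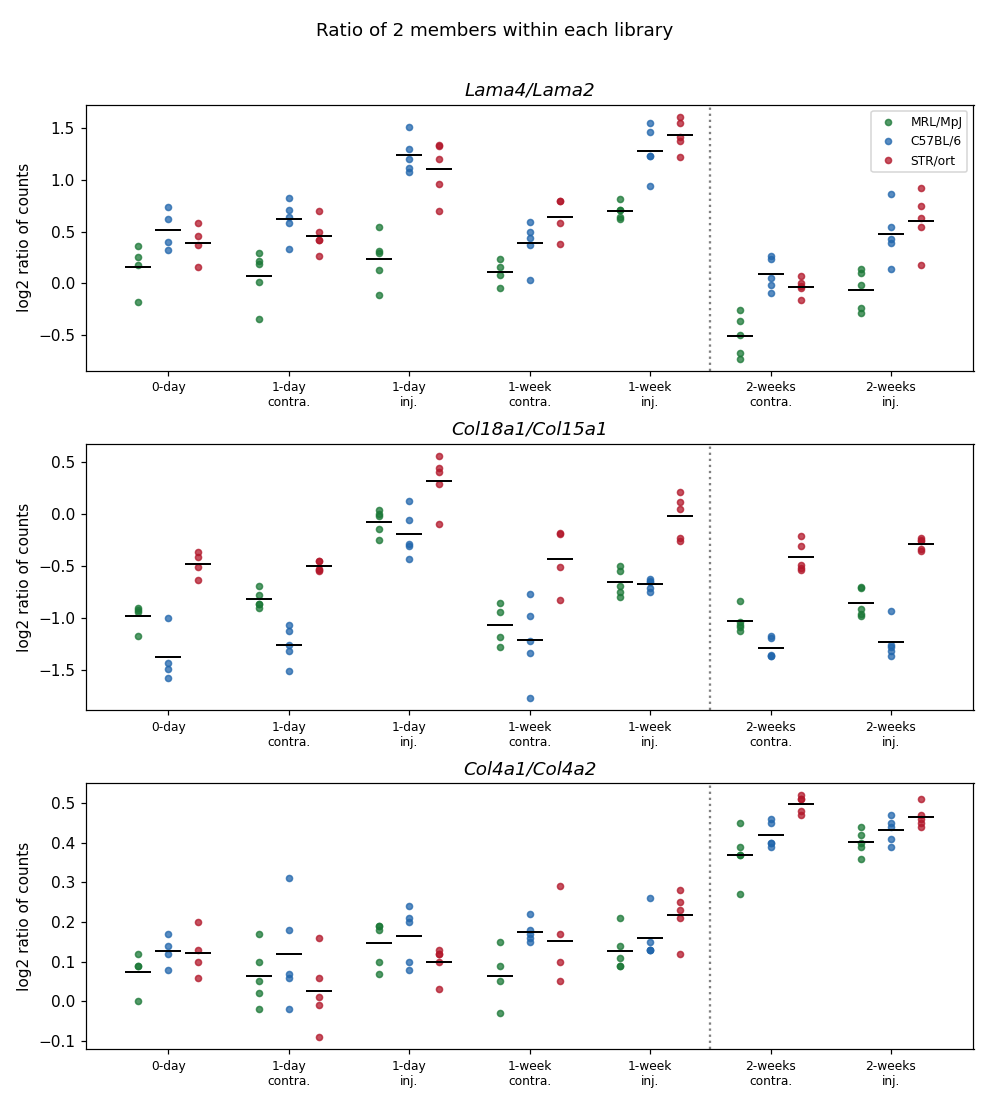
Log2 ratio of read counts of 2 genes in each library (vertical axis) by time point and joint (horizontal axis) and strain (color). Black bars are group means and the dotted line separates the batches. Lama4 over Lama2 was higher in injured joints in 8 of 9 comparisons, and Col4a1 over Col4a2 ran from -0.09 to 0.31 in the first batch and from 0.27 to 0.52 in the second.

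Other genes of the basement membrane were read from lists. For these counts the shares of all genes called higher after injury in MRL/MpJ, C57BL/6 and STR/ort were 1.53%, 4.26% and 1.61% at 1-day, 2.93%, 4.75% and 5.67% at 1-week, and 1.14%, 2.88% and 4.34% at 2-weeks. The shares called lower were 0.497%, 1.34% and 2.7% at 1-day, 0.191%, 1.07% and 3.54% at 1-week, and 0.0173%, 0.0693% and 0.318% at 2-weeks. Of 13 further chains, 2 were called higher at 1-week in each strain, the nidogen Nid2 (0.60, 0.81 and 0.84 in MRL/MpJ, C57BL/6 and STR/ort) and the collagen IV chain Col4a5 (1.19, 0.83 and 0.62). Col4a6, Lama1 and Lamb3 had a mean below 1 CPM. At 1-day Lama1 was called lower in C57BL/6 (-1.47) and Col4a5 in STR/ort (-0.995). At 2-weeks Nid2 was higher (0.66) and Lamc3 lower (-0.62) in STR/ort.
Of 11 assembly and associated proteins, 1, 3 and 1 were higher at 1-day in MRL/MpJ, C57BL/6 and STR/ort, 2, 3 and 4 at 1-week and 0, 2 and 5 at 2-weeks. Ntn4, a netrin that binds laminin, was lower in STR/ort at 1-day (-0.98). Pxdn, the peroxidasin that cross-links collagen IV, led at 1-week with 1.17, 1.62 and 1.95, and Fbln2, a fibulin, led at 1-day with 1.03, 2.18 and 0.74. Serpinh1, the collagen chaperone, was called in STR/ort at 2-weeks (0.72).
Of 12 receptors, 0 to 3 were higher in any injury comparison and 0 lower. Sdc1, the proteoglycan syndecan-1, gave 0.59 in C57BL/6 and 0.64 in STR/ort at 1-day, 0.90 and 1.20 at 1-week, and 1.15 in STR/ort at 2-weeks. Itga7, the laminin-binding integrin of muscle, was called at 1-day in C57BL/6 (1.17). Itgb4 was called in STR/ort at 1-week (0.69) and at 2-weeks in C57BL/6 (0.75) and STR/ort (0.71).
Of 8 proteases, 1, 3 and 2 were higher at 1-day, 3, 5 and 4 at 1-week and 2, 4 and 5 at 2-weeks, in the same order of strains, and 0 were lower. Mmp3, the stromelysin, gave 2.04 to 2.41 at 1-day and 2.90 and 2.35 in MRL/MpJ and C57BL/6 at 1-week. Mmp2, the gelatinase that cleaves collagen IV, gave 1.35 and 1.67 there, while Mmp14 (1.53) and Tll1 (1.33) had the largest changes in STR/ort.

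Markers of cells that make or wear basement membranes are given beside these results. The 12 endothelial markers summed to 494 to 632 CPM in 1-day joints, without a call in any strain. At 1-week their sum was 563 to 594 CPM in contralateral and 547 to 627 CPM in injured MRL/MpJ joints, 558 to 611 and 573 to 618 CPM in C57BL/6, and 532 to 639 and 647 to 818 CPM in STR/ort. Emcn, an endothelial sialomucin, was the 1 endothelial marker called after injury, in STR/ort at 1-week (0.69) and 2-weeks (0.62). The summed level of the 10 genes went from 801 to 923 CPM to 1322 to 1452 CPM in the same MRL/MpJ joints, from 828 to 1034 CPM to 1392 to 1878 CPM in C57BL/6 and from 1255 to 2057 CPM to 2583 to 3787 CPM in STR/ort. At 1-week the endothelial sums overlapped between the joints in MRL/MpJ and C57BL/6 and did not in STR/ort, nor did they in STR/ort at 2-weeks, at 646 to 688 CPM in contralateral and 725 to 773 CPM in injured joints. The sums of the 10 genes overlapped in no strain at 1-week.
Fibroblast markers moved with the 10 genes. At 1-week 5, 6 and 4 of 8 were called higher in injured MRL/MpJ, C57BL/6 and STR/ort joints, led by Col3a1 (2.61, 2.43 and 1.77), and at 2-weeks 4, 4 and 5. Fast skeletal muscle markers were called lower at 1-week in STR/ort (7 of 8) and C57BL/6 (2 of 8) and in 0 of 8 in MRL/MpJ. Mural cell markers gave 0, 1 and 3 of 8 higher at 1-week, with Acta2 (1.27) the largest in STR/ort. Schwann cell markers gave 1 higher in MRL/MpJ (Pmp22, 0.63) and 1 lower in STR/ort (S100b, -0.66), adipocyte markers 0, 3 and 3 of 8 lower, bone markers 0, 1 and 5 of 8 lower, and leukocyte markers 0, 0 and 1 of 8 lower, each at 1-week. Cartilage markers gave 2, 3 and 1 of 7 higher there. At 2-weeks mural sums were higher in injured joints without overlap in C57BL/6 (563 to 672 against 442 to 536 CPM) and STR/ort (580 to 702 against 461 to 545 CPM). They overlapped in MRL/MpJ. No erythroid marker and no proliferation gene was called after injury. Each list had members detected in these joints, as whole joint tissue would give, and the part of the lists in the levels of the 10 genes was not tested.

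**Figure D5:**
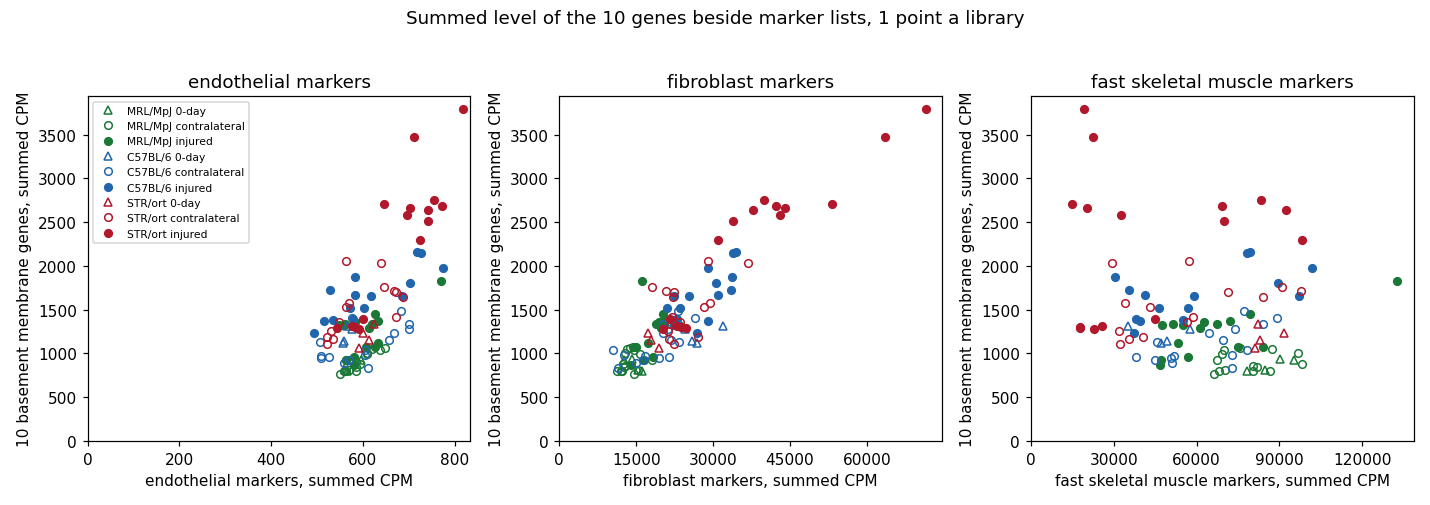
Summed CPM of the 10 basement membrane genes (vertical axis) against the summed CPM of the endothelial, fibroblast and fast skeletal muscle markers (horizontal axes, all from 0), 1 point a library; color gives the strain, filled circles are injured, open circles contralateral and triangles 0-day joints. STR/ort injured replicates 1 and 2 at 1-week lie highest, at 3787 and 3466 CPM, with fibroblast sums of 71580 and 63440 CPM. The other STR/ort injured joints at 1-week (2583 to 2711 CPM) overlap those at 2-weeks (2297 to 2752 CPM).

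Across the 70 libraries of the first batch 9 of the 10 genes varied together. The median Pearson correlation of log2 CPM between pairs was 0.882, and 0.939 over the 30 libraries of the second batch, in both of which injury, strain and time are shared. Col4a1 and Col4a2 had the highest value (0.987 and 0.995). Lama2 had a median of 0.548 with the others, the lowest being that with Col18a1 in the first batch (0.472) and with Col15a1 in the second (0.477).
Outside the set, the gene most like each one over the 70 libraries was searched among 14407 genes. For Lamb1 it was Cthrc1 (0.976, and 0.955 in the 30 others), for Col15a1 Mmp2 (0.965 and 0.960) and for Col18a1 Gpr153 (0.965 and 0.959). For Hspg2 it was Mrc2 (0.964 and 0.929), for Lama4 Sulf1 (0.963 and 0.976), for Lamc1 Ppfibp1 (0.951 and 0.929) and for Nid1 Ogn (0.948 and 0.963). The collagen IV genes were closest to Pofut2 (Col4a1, 0.932 and 0.939) and Medag (Col4a2, 0.939 and 0.946), and Lama2 to Prnp (0.725 and 0.733). These correlations are descriptions over libraries that share strain, time and injury.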

How the data were processed

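Whole knee joints were profiled by RNA-seq of poly(A) RNA in 100 libraries. The authors aligned reads to mm10 with TopHat2 2.0.11 and counted them on RefSeq genes with featureCounts, and the deposited values are raw counts per gene, filtered by the authors to genes with at least 2 counts in at least 5 libraries. The table held 17313 rows, of which 3 identical repeats were dropped, leaving 17310 genes. Total counts per library ranged from 6182016 to 20986027 (median 10582591), and no 2 libraries of a group were identical. Nothing states that replicates came from separate cages or days, and p-values measure the spread between these joints.

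The 10 genes and all other lists were chosen with earlier results of these data known. All 10 were tested in every comparison and those called are named, and of each list the called genes with the largest changes, at most 2 in a direction. The likeness search used genes with a mean of at least 1 CPM. edgeR 4.0.16 (R 4.3.3, TMM scaling, quasi-likelihood F test) was fitted at 0-day, at each later time point over all strains and joints, and in each strain over the first batch for time, as 51 contrasts. Benjamini-Hochberg adjustment ran over all 17310 genes. A call needed an adjusted p under 0.05 and a change over 1.5-fold. Log2 CPM used a prior count of 2. Per-kilobase values used exon lengths of the mm10 annotation, and promoters came from the RefSeq table of GRCm38.p6. Ratios were tested with exact permutation tests (SciPy 1.17.1). On simulated counts of 17310 genes for STR/ort at 1-week, 46% of 1.5-fold and 94% of 2-fold changes were called. Alternatives were median-of-ratios size factors, 1 or 2 unwanted factors, housekeeping scaling, DESeq2 1.42.0, other filters, no fold limit, only the groups compared, a replicate block and each library left out.

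At 2-weeks the labels give the animal, so that replicate numbers pair the knees. The correlation of deviations within the 15 pairs ran from -0.279 to 0.449 (median 0.213). At 1-day and 1-week the labels do not give the animal. Every same-numbered STR/ort pair at 1-week was above 0.1 (0.162 to 0.37), and these were taken as paired. The labelled MRL/MpJ pairs at 2-weeks ran from -0.279 to 0.0824, so this correlation cannot show which joints are pairs. Other groups share only a number.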

Additional observations from a re-analysis of the deposited data

Results flagged for a closer look

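In groups of 4 or 5 joints, a highest or lowest library stood apart from the others by Dixon's test in 12 of 210 combinations of gene and group, where chance gives about 1 in 20. Lama2 held 4 of them: C57BL/6 contralateral replicate 1 at 1-day (54.6 CPM), C57BL/6 injured replicate 2 at 1-week (52.4 CPM) and MRL/MpJ injured replicate 4 at 2-weeks (69.9 CPM) were high, and STR/ort injured replicate 5 at 1-week (42.7 CPM) was low. Col18a1 was high in MRL/MpJ replicate 1 at 0-day (29.15 CPM) and C57BL/6 contralateral replicate 1 at 1-day (51.2 CPM), and low in STR/ort contralateral replicate 5 at 2-weeks (45.1 CPM). Hspg2 was high in C57BL/6 injured replicate 5 at 1-week (292 CPM) and in MRL/MpJ injured replicate 4 at 2-weeks (399 CPM). That MRL/MpJ library, also high for Lama2, had the highest sums of its group for fast muscle markers (132700 CPM, against 61320 to 74880 CPM in the other 4) and endothelial markers (771 against 607 to 634 CPM) and for the 10 genes (1831 against 1069 to 1368 CPM), and the part of these markers was not tested. C57BL/6 injured replicate 5 at 1-week was also high for Col4a1 (339 CPM). Col15a1 was high in C57BL/6 replicate 4 at 0-day (132 CPM), and Lamb1 in C57BL/6 contralateral replicate 4 at 2-weeks (44.8 CPM).

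The effect of injury differed between groups by the interaction test in 2 genes between STR/ort and C57BL/6 at 1-day, Col18a1 (-0.75 on the log2 scale) and Lamb1 (-0.71). It was larger at 1-week than at 1-day for Col15a1 in MRL/MpJ (0.98), C57BL/6 (1.09) and STR/ort (1.32), for Col18a1 in MRL/MpJ (0.65) and STR/ort (0.92), for Lamb1 in MRL/MpJ (1.06) and STR/ort (1.25), and for Nid1 in MRL/MpJ (0.80) and STR/ort (1.16). In STR/ort it was also larger for Lama4 (0.76), Lamc1 (0.64) and Hspg2 (0.87).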

How the results depend on the processing

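No called gene among the 10 changed direction under any alternative. The self-test called 44% to 50% of simulated 1.5-fold changes, and counts of calls moved. The filter on low counts removed 0 genes, so that leaving it out gave the same fit and tested nothing. The count of calls stayed within 1.5 times in all 18 contrasts with the replicate block, and of 51 moved in 2 with median-of-ratios size factors, 3 with DESeq2, 3 with edgeR's filterByExpr, 5 with housekeeping scaling, 9 and 13 with 1 and 2 unwanted factors, 2 of 39 with only the groups compared, and 22 without the fold limit. The causes were not tested. In what follows a pair of strains joined by "over" gives the direction.

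A percentage beside a count is the share of all genes called in either direction in that contrast under the same setting. At 0-day the 3 genes of STR/ort over MRL/MpJ (14.8%) became 1 with 2 unwanted factors (11.2%) and 8 without the fold limit (33.8%). The 1 of STR/ort over C57BL/6 (13.8%) became 0 with 1 or 2 factors (8.17% and 3.86%) and housekeeping scaling (14.2%) and 3 without the fold limit (35.2%), and the 6 of C57BL/6 over MRL/MpJ (15.9%) became 0 with 2 factors (1.69%). After injury at 1-day the counts without the fold limit were 3 (4.27%), 8 (19%) and 1 (10.1%) in MRL/MpJ, C57BL/6 and STR/ort in place of 1, 3 and 0. At 1-week MRL/MpJ had 9 (4.7%, and 2.92% with 2 factors, which also gave 9) in place of 5, and at 2-weeks MRL/MpJ had 7 (1.92%) in place of 3 and C57BL/6 9 (8%) in place of 5. The 1-day interaction of STR/ort over C57BL/6 gave 1 with only the groups compared (2.11%) and 5 without the fold limit (4.02%) in place of 2. That of C57BL/6 over MRL/MpJ gave 1 in place of 0 with 1 or 2 factors (0.422% and 0.901%), DESeq2 (0.595%) and filterByExpr, and that of STR/ort over MRL/MpJ at 2-weeks gave 1 with 2 factors (0.774%).

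In injured joints at 1-day STR/ort over MRL/MpJ gave 10 with 1 or 2 factors (13.4% and 13.9%), 1 with housekeeping scaling (21.9%) and 8 without the fold limit (46.2%) in place of 3. STR/ort over C57BL/6 gave 0 (7.63% and 7.89%), 2 (13.9%) and 4 (30.2%) under the same settings in place of 1. In injured joints C57BL/6 over MRL/MpJ gave 2 without the fold limit (19.7%) at 1-week in place of 0, and at 2-weeks 1 with size factors, filterByExpr, DESeq2 and only the groups compared (10.6% to 11.3% where the share was computed, which excepts filterByExpr) or 9 without the fold limit (30%) in place of 3. STR/ort over C57BL/6 at 2-weeks gave 9 without the fold limit (28.1%) in place of 2. In contralateral joints at 1-day STR/ort over C57BL/6 gave 4 with 1 or 2 factors (10.5% and 11%) and 3 without the fold limit (28%) in place of 1, and C57BL/6 over MRL/MpJ gave 6 in all 3 settings (12.2%, 11.7% and 34.1%) in place of 3. At 1-week C57BL/6 over MRL/MpJ gave 1 with 1 factor (8.94%) and without the fold limit (16.5%) in place of 0. At 2-weeks it gave 1 with 1 or 2 factors (9.25% and 8.72%) and 5 without the fold limit (23.3%) in place of 0, and STR/ort over C57BL/6 gave 7 without the fold limit (26.5%) in place of 1. In injured MRL/MpJ joints the 3 genes higher at 1-week than at 1-day became 8 without the fold limit (8.6%). Between 0-day and 1-week contralateral joints, C57BL/6 gave 2 with size factors, 2 factors, housekeeping scaling and DESeq2 (5.54% to 5.62%) and with filterByExpr, or 4 without the fold limit (13.9%), in place of 1. STR/ort gave 9 and 10 with 1 and 2 factors (4.2% and 4.62%), 2 with housekeeping scaling (12.2%) and 7 without the fold limit (26.3%) in place of 4.

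Values of uncalled genes that changed sign were small. With 2 factors they were Lama2 at 0-day in STR/ort over MRL/MpJ (-0.0552), STR/ort over C57BL/6 (0.0378) and C57BL/6 over MRL/MpJ (-0.0930), Hspg2 in STR/ort over C57BL/6 (0.0180) and Hspg2 after injury in STR/ort at 1-day (0.0234). With 1 factor they were Col4a1 (-0.0587) and Col4a2 (-0.000566) at 0-day in STR/ort over C57BL/6. Nid1 after injury in MRL/MpJ at 1-day was -0.000706 with filterByExpr, and Col15a1 in C57BL/6 was -0.0412 with housekeeping scaling.

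The replicate block, an exact sign-flip test over pairs, ended all 13 calls of ratios (adjusted p = 0.188 to 0.225), since 5 pairs cannot go below p = 0.0625. The paired differences of Lama4 to Lama2 were 0.624 and 0.649 in C57BL/6 and STR/ort at 1-day, 0.590, 0.896 and 0.773 in MRL/MpJ, C57BL/6 and STR/ort at 1-week, and 0.446, 0.386 and 0.636 at 2-weeks. Those of Col18a1 to Col15a1 were 0.748, 1.07 and 0.827 at 1-day, and 0.440 and 0.542 in MRL/MpJ and C57BL/6 at 1-week. In the quasi-likelihood fit the block moved no count of the 10 genes by over 1.5 times. It ended the Col4a1 call in C57BL/6 at 1-week (0.58), where joints share only a number, and 3 uncalled collagen IV values passed, Col4a1 in MRL/MpJ (0.59) and STR/ort (0.60) at 1-week and Col4a2 in C57BL/6 at 2-weeks (0.59). At 1-day (-0.21 to 0.392) and in the other strains at 1-week (-0.0353 to 0.431) the correlations of same-numbered joints did not all reach 0.1, and not every library correlated best with its own number.

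When single libraries were dropped, counts ranged from 0 to 1 for STR/ort over C57BL/6 at 0-day (0 without C57BL/6 replicates 2 or 3 or STR/ort replicates 3 or 4), from 0 to 5 for the 1-day interaction of STR/ort over C57BL/6, and from 1 to 5 for contralateral C57BL/6 over MRL/MpJ at 1-day (1 without C57BL/6 replicate 1, 5 without replicates 3 or 4). They ranged from 0 to 1 for the interaction of C57BL/6 over MRL/MpJ at 1-day (1 without MRL/MpJ injured replicate 2, C57BL/6 injured replicate 2 or C57BL/6 contralateral replicate 1), for contralateral C57BL/6 over MRL/MpJ at 1-week (1 without MRL/MpJ replicate 4 or C57BL/6 replicates 1 or 4) and 2-weeks (1 without C57BL/6 replicates 1 or 2), and for the interaction of STR/ort over MRL/MpJ at 2-weeks (1 without MRL/MpJ injured replicate 4 or STR/ort injured replicate 3). They ranged from 1 to 4 for injured C57BL/6 over MRL/MpJ at 2-weeks, from 1 to 2 for C57BL/6 contralateral joints at 1-week over 0-day (2 without 0-day replicates 1, 2 or 3 or 1-week replicates 3, 4 or 5) and from 1 to 7 for those of STR/ort.

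The ratios kept their sign without any single library except where they were near 0, at Col18a1 to Col15a1 in C57BL/6 at 2-weeks (-0.0151 to 0.0945, below 0 without injured replicate 2) and Col4a1 to Col4a2 at 0-day in STR/ort over C57BL/6 (-0.0305 to 0.0174, above 0 without STR/ort replicates 2 or 4 or C57BL/6 replicate 1). With fewer joints the smallest exact p rises, and calls were lost for Lama4 to Lama2 in STR/ort at 1-day (0.591 to 0.751) in 8 of 10 refits, in MRL/MpJ (0.542 to 0.633) and STR/ort (0.713 to 0.853) at 1-week in 9 of 9, in C57BL/6 at 2-weeks (0.288 to 0.468) in 9 of 10 and in MRL/MpJ at 2-weeks (0.392 to 0.508) in 8 of 10, and for Col18a1 to Col15a1 in MRL/MpJ at 1-week (0.333 to 0.473) in 9 of 9. A call was gained for Col18a1 to Col15a1 in MRL/MpJ at 2-weeks (0.144 to 0.230) without contralateral replicate 4 and for Col4a1 to Col4a2 in STR/ort at 2-weeks (-0.0415 to -0.0227) without injured replicate 5. Uncalled genes that changed sign were Lama2 at 0-day in STR/ort over MRL/MpJ (-0.0275 to 0.237), Nid1 in MRL/MpJ at 1-day (-0.0790 to 0.0485), Col15a1 in C57BL/6 at 1-day (-0.0322 to 0.109), Lama2 in C57BL/6 at 1-week (-0.0125 to 0.296) and Lama2 in MRL/MpJ at 2-weeks (-0.0705 to 0.116).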
